A study of Mus musculus with 52 samples.

Results

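Tug1 and Morc2a are 2 genes on mouse chromosome 11 that start close together and are read away from each other on opposite strands, with 5′ ends that overlap in the annotation. The rows of both genes were taken by gene name from the 8 tissues of the deposited tables, which list 39144 genes in at least 1 tissue. Both genes were chosen by their knockout and wild-type levels in these same tables, so those levels are given as a description and no test was made on them.

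RNA-seq of polyadenylated RNA compared wild-type males with males homozygous for the Tug1_tm1.1Vlcg allele (Tug1-/-), a deletion allele that carries lacZ in place of the Tug1 sequence downstream of exon 1. Heart, liver, spleen, eyes and mouse embryonic fibroblasts (MEFs) had 3 libraries per genotype, prostate had 3 wild-type and 2 knockout libraries, and testes had 4 of each. Testes from 3 rescue males were also sequenced. These carry the same deletion plus tg(Tug1), a doxycycline-inducible Tug1 isoform without the 5′ region, driven in all tissues through CAGs-rtTA3. The rescue males were fed doxycycline, so the diet differs between them and the other groups. The labelled background of all these groups is C57BL/6J/129S6. For the organs and the MEFs it adds N3-C57BL/6J and no Neo for both genotypes. For testes the wild types are marked no Neo and the knockout and rescue animals Neo, LacZ, so that in testes the cassette on the label and the genotype cannot be told apart. The study's methods describe removal of the neomycin gene from the colony by Cre, which differs from the label of these testes. The labels give no ages. The brain means come from animals outside this series, and their library number was not used here. Testes of the 6 F1 hybrid males in the series were not analysed here.

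Tug1 (taurine upregulated gene 1) is a long noncoding RNA that is well conserved among mammals and was first described in the developing retina. Morc2a is the mouse counterpart of MORC2, an ATPase of the MORC family that compacts chromatin and works with the HUSH complex to silence retrotransposons. In people, MORC2 mutations cause an axonal form of Charcot-Marie-Tooth neuropathy. Genes that start back to back, as these do, can share a single promoter region.

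In the tables, Tug1 (ENSMUSG00000056579.18, typed as antisense RNA) spans chr11:3639785-3649673 on the minus strand and Morc2a (ENSMUSG00000034543.14, protein coding) spans chr11:3649494-3690477 on the plus strand, both on the mm10 (GRCm38) build. The spans share 180 bases, chr11:3649494-3649673, and all 180 are exonic in both genes. Of the 8 Tug1 transcripts in GENCODE vM21, an annotation of the same build, only 1 reaches into the Morc2a span of the tables. In that annotation Morc2a starts further upstream and the stretch that is exonic in both genes is 483 bases, which is 4.96% of the Tug1 exonic bases and 7.52% of the Morc2a exonic bases. The library kit does not mark strand, so reads from the shared stretch cannot be told apart. The isoform in the rescue transgene starts at position 3647530 and its 3 exons cover 5112 bases, 52.5% of all annotated Tug1 exonic bases.

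**Figure D1:**
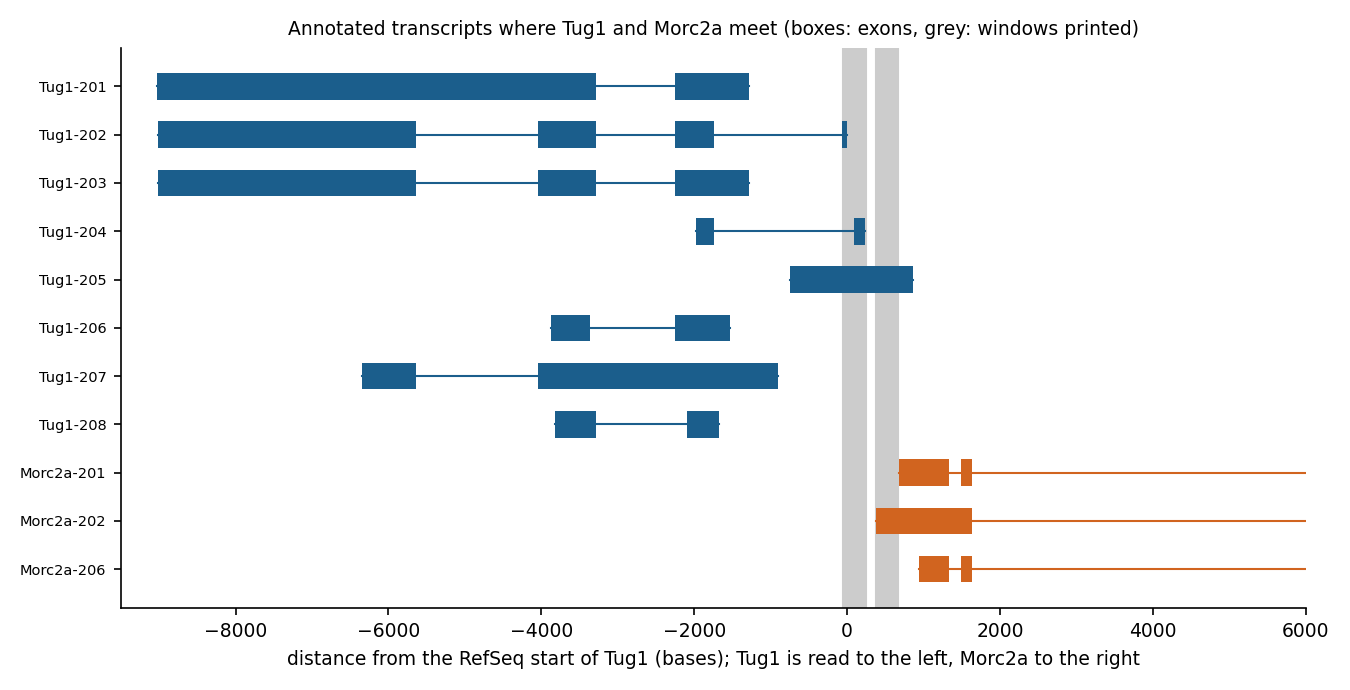
Annotated transcripts (GENCODE vM21, same build as the tables) of Tug1 in blue and Morc2a in orange, against the distance in bases from the RefSeq start of Tug1; boxes are exons, lines are introns, and Morc2a goes on beyond the right edge. Only 1 of the 8 Tug1 transcripts reaches the Morc2a span of the tables, and the grey bars mark the start-site windows whose sequences are given in the text.

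The start regions of both genes are shown because the allele is described as keeping the promoter and first exon of Tug1, next to the start of Morc2a. Both genes were found in RefSeq (GRCm38.p6), where the Tug1 start lies at position 3648814 and the first Morc2a start at position 3649437, 623 bases apart. Each window holds 250 bases before the start and 50 from it on, read 5′ to 3′ on the strand of its gene, and 122 bases lie between the windows. Tug1 is chr11:3648765-3649064 on the minus strand and Morc2a is chr11:3649187-3649486 on the plus strand. Capitals mark the letters GGGCGG (a GC box) and CCAAT, searched on both strands, so that ATTGG is CCAAT on the other strand.
Tug1: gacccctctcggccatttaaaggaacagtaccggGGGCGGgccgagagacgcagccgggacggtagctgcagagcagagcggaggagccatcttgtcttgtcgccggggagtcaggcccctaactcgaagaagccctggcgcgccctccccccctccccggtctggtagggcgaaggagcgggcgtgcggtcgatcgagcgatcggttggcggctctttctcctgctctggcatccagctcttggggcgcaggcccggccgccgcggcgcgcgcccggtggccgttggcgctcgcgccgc
Morc2a: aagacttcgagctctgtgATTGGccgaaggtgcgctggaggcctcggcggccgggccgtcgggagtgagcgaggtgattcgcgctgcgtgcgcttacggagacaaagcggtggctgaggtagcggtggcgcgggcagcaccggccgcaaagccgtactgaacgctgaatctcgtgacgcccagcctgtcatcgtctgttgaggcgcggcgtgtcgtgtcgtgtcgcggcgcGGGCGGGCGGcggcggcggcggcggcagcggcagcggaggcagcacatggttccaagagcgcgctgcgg
The Tug1 window holds GGGCGG 1 time and no CCAAT. The Morc2a window holds GGGCGG 2 times, in overlapping copies, and CCAAT 1 time. Neither of these windows holds TATAAA, the core of a TATA box. Among all 32851 RefSeq start windows of this length, 35.7% hold GGGCGG, 37.4% hold CCAAT and 13.6% hold TATAAA, so these matches are common. Both windows are rich in G and C, at 71.3% for Tug1 and 70.3% for Morc2a against a median of 52.7% over all windows. CpG dinucleotides number 37 in the Tug1 window and 46 in the Morc2a window, where the median window holds 7. Of all windows, 92.2% had a lower GC content and 94.4% had fewer CpGs than that of Tug1. For Morc2a these shares were 90.9% and 98.4%. A second RefSeq start of Morc2a, further into the gene, has a window of 28.3% GC with 0 CpGs and holds TATAAA 1 time.

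All levels are in TPM, reads divided by the length of the gene and scaled to the same total in each library, so that levels can be compared between genes. The tables hold the authors' mean of each group and no value of a single animal, and the errors the authors computed for their own comparisons were not used. No spread between replicates is therefore given for a level, and no neighbours in an order of levels can be said to differ beyond it. Fold changes are ratios of the authors' means with no pseudocount. In bulk tissue, fewer cells that make an RNA and less RNA per cell cannot be told apart.

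In wild-type tissue, Tug1 was highest in eyes, brain and spleen and lowest in liver and heart. The authors' mean Tug1 level was 57.5 TPM in eyes, 57.03 TPM in brain, 53.8 TPM in spleen, 46.4 TPM in MEFs, 40.1 TPM in testes, 27.8 TPM in prostate, 11.6 TPM in heart and 10.1 TPM in liver. The range between tissues was 5.71-fold. Tug1 lay above 53.7% (liver) to 83.7% (eyes) of the genes of 1 TPM or more in either genotype of the same tissue.

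Morc2a followed a similar order but was highest in testes and MEFs. Its mean was 52.9 TPM in testes, 51.2 TPM in MEFs, 41.3 TPM in eyes, 34.2 TPM in brain, 33.5 TPM in spleen, 19.9 TPM in prostate, 10.2 TPM in heart and 6.36 TPM in liver, an 8.32-fold range. The same 3 tissues, prostate, heart and liver, were lowest for both genes. Tug1 exceeded Morc2a in 6 of 8 tissues, by 1.14-fold in heart to 1.67-fold in brain. In testes and MEFs the Tug1 mean was 0.758 and 0.905 times the Morc2a mean. Over the 8 wild-type means, the log2 levels of the pair had a Pearson correlation of 0.928 and a Spearman correlation of 0.619, and each point holds both genes from the same libraries.

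Many other genes had wild-type profiles more like either gene than the pair were like each other. Among 9523 other genes with at least 1 TPM in every wild-type mean, 450 had a higher Pearson correlation of log2(mean TPM + 0.1) with Tug1 than Morc2a had, and 280 had a higher one with Morc2a than Tug1 had. The 5 genes most like Tug1 over the 8 tissues were Tfip11 (r = 0.994), which takes part in spliceosome disassembly, Smarcb1 (r = 0.990), a core subunit of the SWI/SNF remodeller, Hnrnpr (r = 0.990), an RNA-binding protein, Slc4a1ap (r = 0.990) and Sf3b2 (r = 0.988), a subunit of the U2 snRNP. Their levels differ: Tfip11 ran from 11.7 to 45.7 TPM and Sf3b2 from 76.3 to 312 TPM. Among the genes most like Morc2a were Prdm4 (r = 0.993), a zinc finger protein, Cenpc1 (r = 0.991) of the centromere, Snupn (r = 0.990), the import adaptor of spliceosomal snRNPs, and Edc4 (r = 0.988), a scaffold of mRNA decapping. Prdm4 ran from 3.88 to 47.4 TPM, close to the range of Morc2a itself.

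The Tug1 knockout mean was under 1 TPM in all 8 tissues. It was 0.885 TPM in testes, 0.237 TPM in MEFs, 0.235 TPM in eyes, 0.215 TPM in brain, 0.0608 TPM in spleen, 0.0553 TPM in prostate, 0.0544 TPM in heart and 0.00832 TPM in liver. As a share of the wild-type mean, 2.21% was left in testes and 0.0825% (liver) to 0.512% (MEFs) in the other 7 tissues. The fold difference ran from 45.3-fold lower in testes to 1212-fold lower in liver. The Tug1 mean was at least 1.5-fold lower in 8 of 8 tissues, as the deletion of the gene body entails.

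Few reads stand behind the knockout values of Tug1. In the 6 tissues whose library numbers the labels give, the mean scaled read count of both genotypes and the TPM ratio were used to estimate the count per library. By this estimate a knockout library held about 1.46 scaled reads of Tug1 in liver, 7.18 in prostate, 8.42 in spleen, 11.1 in heart, 24.1 in MEFs and 30.1 in eyes, against 1772 (liver) to 7448 (spleen) in a wild-type library. The liver share of Tug1 left thus rests on about 4.38 scaled reads over its 3 knockout libraries together, and how they fell among these is not known. Morc2a was counted more deeply, with about 58.6 scaled reads in a knockout library of liver, 179.7 in prostate, 870 in heart, 980 in spleen, 2139 in eyes and 2325 in MEFs. For testes and brain no such estimate was made.

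**Figure D2:**
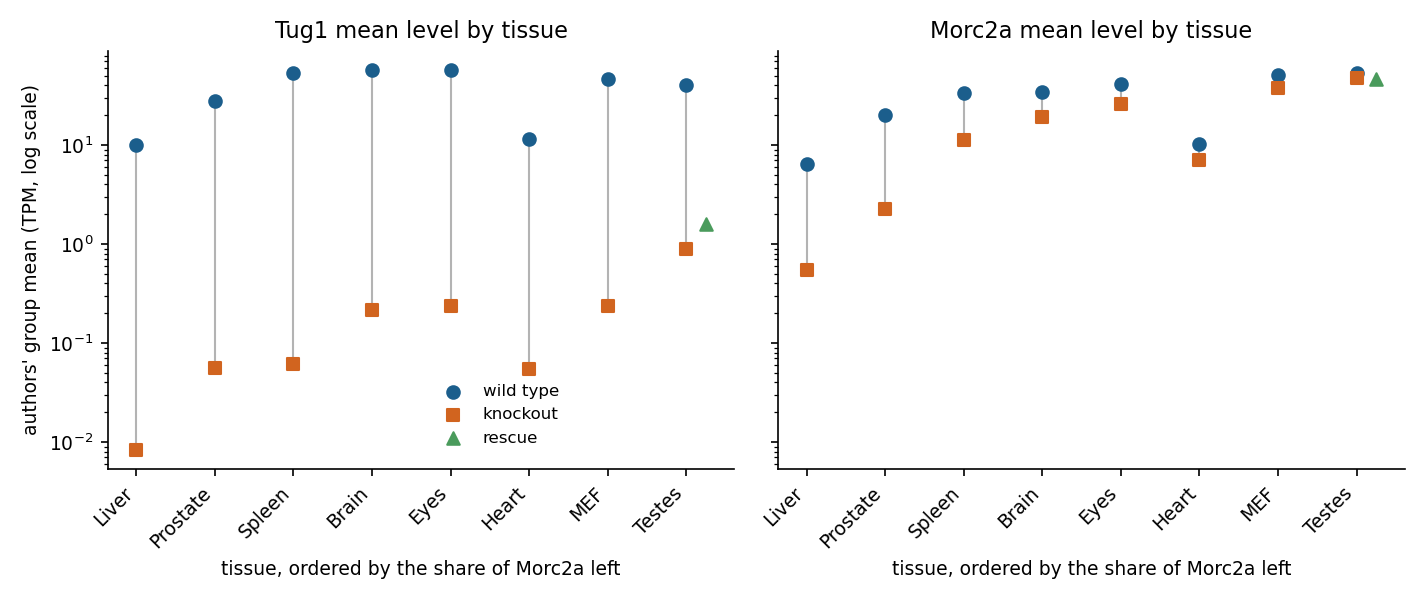
Authors' group means of Tug1 (left) and Morc2a (right) in TPM on a shared log axis, by tissue in order of the share of Morc2a left; circles are wild type, squares knockout and triangles rescue testes, and no error bar is drawn because no values of single samples were available. The Tug1 knockout means lie between 0.00832 and 0.885 TPM, while Morc2a keeps 47.3 TPM in testes and 0.541 TPM in liver.

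Morc2a had a lower mean in the knockout in all 8 tissues, and by very different amounts. The knockout mean was 0.541 TPM in liver against 6.36 TPM in wild type, which leaves 8.51%. In prostate it was 2.25 TPM against 19.9 TPM, which leaves 11.3%. In spleen it was 11.2 TPM against 33.5 TPM, which leaves 33.5%. These are the 3 tissues in which Morc2a was over 2-fold lower, by 11.8-fold in liver, 8.85-fold in prostate and 2.98-fold in spleen.

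In the other 5 tissues most of the RNA remained. Brain had 19.2 TPM against 34.2 TPM (56.0% left), eyes 26.2 TPM against 41.3 TPM (63.4% left), heart 7.10 TPM against 10.2 TPM (69.8% left), MEFs 37.3 TPM against 51.2 TPM (72.9% left) and testes 47.3 TPM against 52.9 TPM (89.4% left). Testes kept the most. The TPM lost had another order than the share lost, with 22.2 TPM in spleen, 17.6 TPM in prostate, 15.1 TPM in both eyes and brain, 13.9 TPM in MEFs, 5.82 TPM in liver, 5.60 TPM in testes and 3.07 TPM in heart. In the knockouts Morc2a differed 87.4-fold between the lowest tissue, liver, and the highest, testes.

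The Morc2a mean was at least 1.5-fold lower in 5 of 8 tissues: liver, prostate, spleen, brain and eyes. Among all genes with at least 1 TPM in either genotype, the share at least 1.5-fold lower was 2.86% in liver, 2.93% in prostate, 5.57% in spleen, 4.24% in brain, 5.19% in eyes, 2.69% in heart, 4.23% in MEFs and 3.72% in testes. These shares are the background of the counts for both genes, and nothing is read from the comparison because the pair was chosen with these contrasts known. At 2-fold the Morc2a count was 3 of 8 and the Tug1 count 8 of 8, beside background shares of 0.883% in liver, 1.29% in prostate, 1.60% in spleen, 2.20% in brain, 1.39% in eyes, 1.26% in heart, 1.19% in MEFs and 2.06% in testes. Eyes and heart lie near the 1.5-fold limit, on its 2 sides, with log2 ratios of -0.66 and -0.52. The median gene itself was shifted by -0.11 in eyes, 0.10 in heart and -0.11 in spleen on the log2 scale. Relative to that median, Morc2a stood at -0.55 in eyes, -0.62 in heart and -1.47 in spleen, so that the count stays at 5 tissues but heart takes the place of eyes.

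The place of Morc2a among all genes of each tissue shows the same spread. In liver, of 7761 other genes with at least 5 TPM in wild type, only Tug1 had a lower ratio of means, and no other of 7448 protein-coding genes did. In prostate 16 of 10274 other genes of that level had a lower ratio, with 1 among the 9471 protein-coding ones, namely Lars2, the mitochondrial leucyl-tRNA synthetase. In spleen 14 of 12144 did, of which 5 are among the 10767 protein-coding ones: Alb and Apoa2, which are liver plasma proteins, Gdf6, Klra17 and Retnla, all named after their values were seen. At a level of 1 TPM or more in either genotype, the number of other genes with a lower ratio was 4 of 12120 in liver, 41 of 15546 in prostate, 96 of 17259 in spleen, 498 of 17728 in brain, 430 of 14003 in heart, 796 of 19708 in eyes, 959 of 14823 in MEFs and 2976 of 22377 in testes. Over all genes of 5 TPM or more in wild type the number was 98 of 12601 in brain, 95 of 8849 in heart, 197 of 14157 in eyes, 315 of 10537 in MEFs and 900 of 13749 in testes. Among protein-coding genes it was 16 of 11674 in brain, 66 of 8470 in heart, 90 of 12691 in eyes, 280 of 9938 in MEFs and 553 of 10926 in testes.

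**Figure D3:**
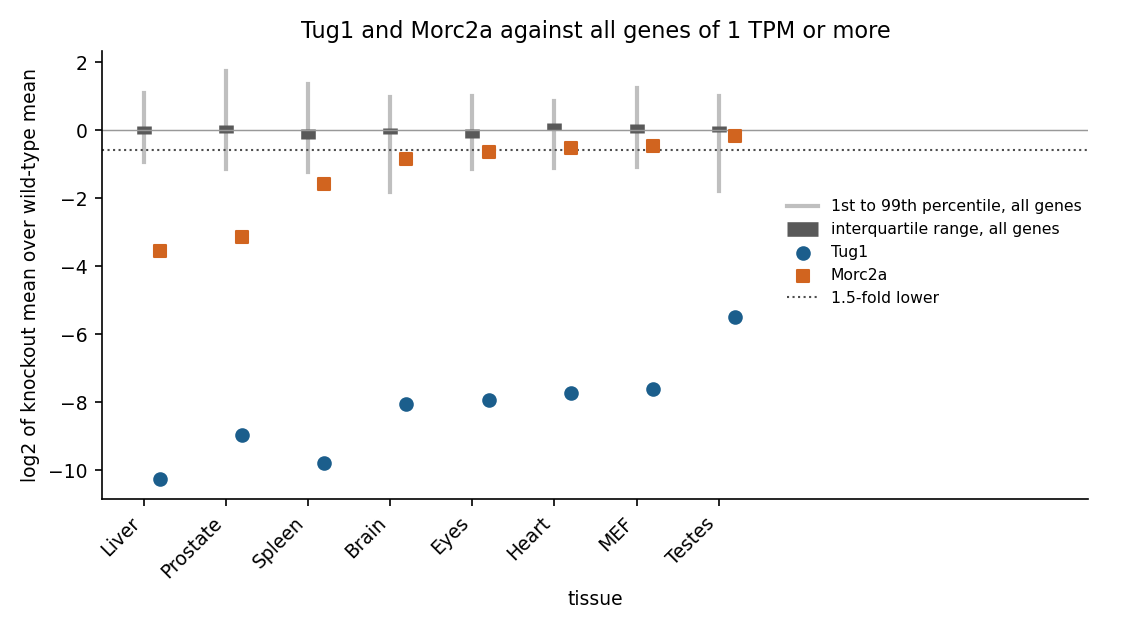
Log2 of the knockout mean over the wild-type mean for Tug1 (circles) and Morc2a (squares) in each tissue, beside the 1st to 99th percentile (thin bar) and interquartile range (thick bar) of all genes with at least 1 TPM in either genotype. Tug1 lies between -10.24 (liver) and -5.50 (testes) and Morc2a between -3.55 (liver) and -0.16 (testes).

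With no pseudocount, the tissues fell in nearly the same order for the share of either RNA left, an order that rests on the low Tug1 counts of the knockouts. From the least to the most, Tug1 ran liver (0.0825%), spleen (0.113%), prostate (0.199%), brain (0.377%), eyes (0.408%), heart (0.470%), MEFs (0.512%) and testes (2.21%). Morc2a had the same order with spleen and prostate exchanged. Over the 8 tissues the log2 ratios of the pair had a Pearson correlation of 0.793 and a Spearman correlation of 0.976, and over the 7 tissues without testes 0.834 and 0.964. With 0.1 TPM added to all means, liver went from the lowest Tug1 ratio to the 6th of 8, and the correlations over the 8 tissues were 0.274 (Pearson) and 0.524 (Spearman). With 1 TPM added they were -0.17 and 0.0714. All Tug1 knockout means lie below 1 TPM, so with this setting the Tug1 ratio mostly follows the wild-type level of Tug1. The values with 1 TPM added therefore cannot decide whether both RNAs share an order of loss. So close an order was seen only where the small Tug1 values left were not damped. Each point holds both genes from the same libraries and the same scaling, and reads from the stretch that is exonic in both genes could be assigned to either. The knockout level of Tug1 amounted to 0.542% (spleen) to 2.46% (prostate) of the knockout level of Morc2a, while the knockout levels differed between tissues 106-fold for Tug1 and 87.4-fold for Morc2a. The log2 knockout levels of the pair had a Pearson correlation of 0.936 and a Spearman correlation of 0.976 over the 8 tissues. Without testes these were 0.947 and 0.964. They rest on the same low Tug1 counts. How much of the Tug1 left comes from the retained first exon, from the shared stretch or from other reads assigned to the gene was not tested.

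**Figure D4:**
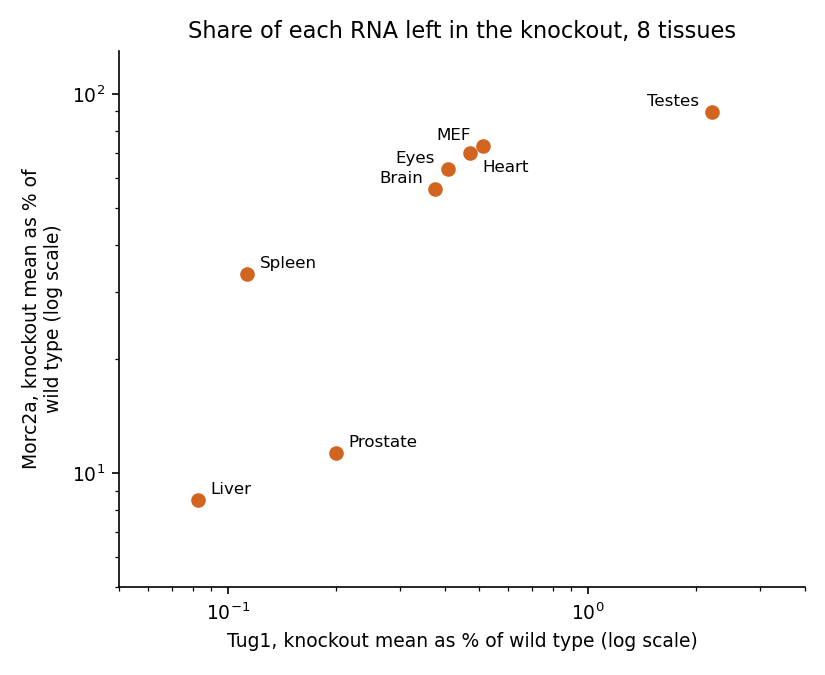
Knockout mean as a percentage of the wild-type mean for Tug1 (horizontal, log axis) and Morc2a (vertical, log axis), 1 point for each of 8 tissues. Liver lies lowest for both genes (0.0825% and 8.51%) and testes highest (2.21% and 89.4%), with no pseudocount added.

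The share of Morc2a left was also set beside the wild-type levels. The Morc2a log2 ratio had a Pearson correlation over the 8 tissues of 0.487 with the log2 wild-type level of Tug1 and of 0.658 with that of Morc2a itself, which is also the denominator of the ratio. The Spearman correlations were 0.238 and 0.762. Heart and liver had the lowest wild-type levels of both genes, yet Morc2a kept 69.8% in heart and 8.51% in liver. Spleen, brain and eyes had Tug1 levels of 53.8 to 57.5 TPM and kept 33.5%, 56.0% and 63.4% of Morc2a.

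Rescue testes had a Tug1 mean a little above that of knockout testes and a Morc2a mean close to it. Tug1 was at 1.60 TPM in rescue testes, 1.81 times the knockout mean of 0.885 TPM and 4.003% of the wild-type mean of 40.1 TPM. Among all genes of 1 TPM or more, 1.59% were at least 1.5-fold higher in rescue than in knockout testes, and 5.38% were at least 1.5-fold lower in rescue than in wild type; Tug1 was in both sets. With 1 TPM added to both means, the log2 ratio of rescue over knockout was 0.47 for Tug1, under the 1.5-fold limit. Morc2a was at 46.2 TPM in rescue testes, 97.8% of the knockout mean of 47.3 TPM and 87.4% of the wild-type mean of 52.9 TPM. On the log2 scale it differed by -0.03 from knockout and by -0.19 from wild type. The transgene isoform covers 52.5% of the exonic bases of the 8 annotated Tug1 transcripts, but none of these transcripts covers all of those bases. A TPM value scaled to that whole length would therefore count endogenous transcripts low as well. Whether it counts the transgene lower than the endogenous transcripts was not tested.

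The partners and relatives of Morc2a were set beside it as a list. The list of HUSH and MORC genes holds the HUSH subunits Fam208a (also called Tasor), Mphosph8 and Pphln1, the histone H3K9 methyltransferase Setdb1 with its stabiliser Atf7ip, the corepressor Trim28, and the other MORC genes Morc1, Morc2b, Morc3 and Morc4. In all, 7 to 10 of these 10 genes had at least 1 TPM in a tissue, which makes 65 pairs of a gene and a tissue. None of the 65 (0) was at least 1.5-fold lower, where the background shares of 2.69 to 5.57% given for Morc2a are themselves low. Their log2 ratios ran from -0.36 (Morc4 in testes) to 0.33 (Mphosph8 in liver). The median of the list was 0.12 in liver and 0.07 in prostate, beside 0.01 and 0.04 for all genes, and it ran from -0.08 in eyes to 0.24 in heart, beside -0.11 and 0.10 for all genes. In liver, Morc3 was at 8.68 TPM in wild type and 10.9 TPM in knockout, and Mphosph8 at 9.45 and 11.9 TPM. In testes, Morc2b, a close relative of Morc2a, was at 224 TPM in wild type and 243 TPM in knockout, above Morc2a in both.

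**Figure D5:**
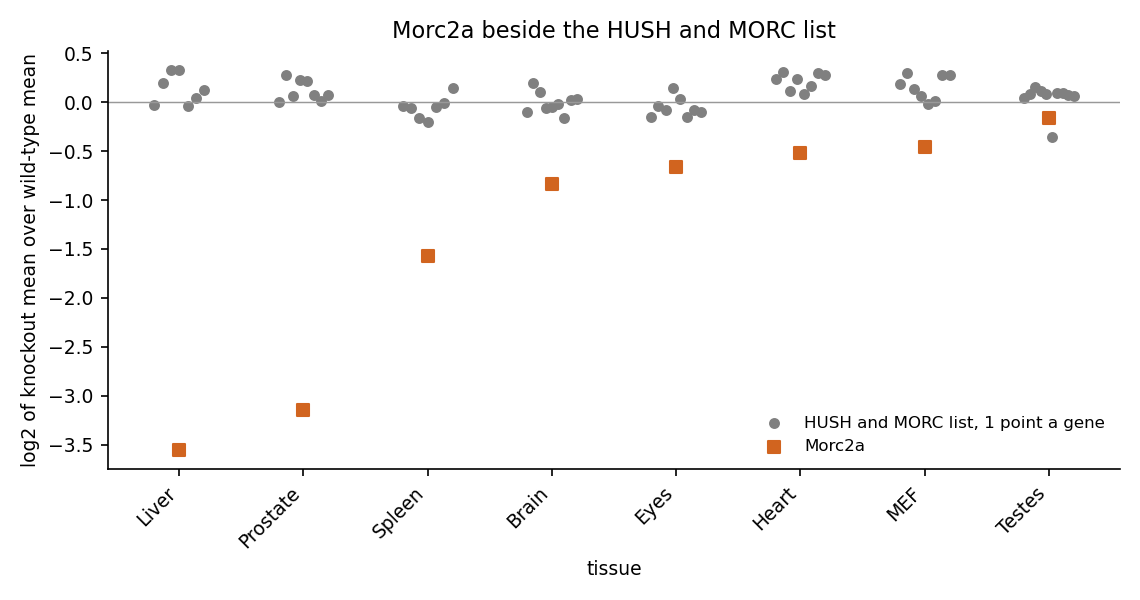
Log2 of the knockout mean over the wild-type mean for Morc2a (orange squares) and for each gene of the HUSH and MORC list with at least 1 TPM (grey points), by tissue. The grey points lie between -0.36 and 0.33 in all 8 tissues, and Morc2a lies below all of them in every tissue but testes, where Morc4 is lower.

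Other abundant long noncoding RNAs served as a list beside Tug1: Malat1, Neat1, Meg3, Gas5, Snhg1, Snhg12, Kcnq1ot1, Miat, Dleu2 and 2900097C17Rik (also called Norad). With at least 1 TPM they gave 65 pairs of a gene and a tissue, of which 1 was at least 1.5-fold lower, Malat1 in prostate at -0.63, where 2.93% of all genes were (2.69 to 5.57% over the 8 tissues). The log2 ratios ran from there to 0.38 (Dleu2 in MEFs). The median of the list ran from -0.11 in eyes to 0.12 in MEFs, beside -0.11 and 0.05 for all genes, against -7.94 and -7.61 for Tug1.

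The only other gene whose span overlaps either of the pair was Gm26393, typed as a small nuclear RNA, on the minus strand inside Morc2a (chr11:3656663-3656791). It was listed in 3 tissues. Its mean was 1.32 TPM in wild-type, 4.01 TPM in knockout and 2.50 TPM in rescue testes, while MEFs had 0.874 and 0.199 TPM and spleen 0.982 and 0.449 TPM in wild type and knockout. At these levels, without values of single samples, no direction is given.

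The labelled tissues held their own markers, with every one of the 4 or 5 marker genes of each tissue at 1 TPM or more in wild type. Their summed level in knockout was between 0.768 (spleen) and 1.24 (heart) times that in wild type. Several samples also held RNA of other cells in unequal amounts. Pancreas enzymes (4 of 4 genes) summed to 68.8 TPM in wild-type and 5108 TPM in knockout spleen, and seminal vesicle genes (5 of 5) to 19935 TPM in wild-type and 59341 TPM in knockout prostate. Epididymis genes (4 of 4) summed to 874 TPM in wild-type testes, 2.16 TPM in knockout and 1.38 TPM in rescue testes. Haemoglobin genes in knockout were between 0.543 (testes) and 3.12 (eyes) times their wild-type sum, and had no row in MEFs. The part of these differences in the levels of Tug1 and Morc2a was not tested. In liver, where Morc2a was lowest, marker and haemoglobin sums in knockout were 1.04 and 1.02 times those in wild type. Summed scaled counts per library averaged 17600000 in brain and 38700000 to 48300000 in the other 6 tissues that have a count column.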

How the data were processed

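Polyadenylated RNA was sequenced from mouse tissues and MEFs. Per the labels and the study's methods, the authors used CASAVA 1.8.2, STAR, featureCounts and DESeq2 with the mm10 build, and kept only genes that reached 3 reads in some replicate. Whether counting used strand is not given in the sources used here. Each deposited table holds the authors' mean per group in TPM. The TPM means of the 7 tissues other than testes stand stacked in 1 column per genotype and are the authors' values as given; the deposited mean scaled count over both genotypes in those tissues is a signal on the scale of reads. The tables also hold the authors' fold changes, standard errors, test statistics, p-values and significance marks, which were not used. With no values of single samples, no test, SD or count model could be run, and no depth per sample is known.

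Ratios of means had no pseudocount, and background shares took genes of at least 1 TPM in either group and a 1.5-fold limit. These and the correlations were computed with Python 3.11.15, pandas 2.3.3, numpy 2.4.6 and scipy 1.17.1. The ratio and correlation steps were checked on simulated data with planted changes and little noise. The simulation did not imitate low counts, so it says nothing on the Tug1 knockout values. Figures used matplotlib 3.10.9. Start windows came from RefSeq and exons from GENCODE vM21. Named were both genes, genes overlapping them, the 5 most similar wild-type profiles of each (1 of them is not reported here), and the extremes of the HUSH and MORC list and of the list of abundant long noncoding RNAs, plus tissue, seminal vesicle, epididymis, pancreas and blood markers. The genes and lists were chosen with earlier results of these data known. Alternatives changed the pseudocount, filter, limit, scaling and tissues.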

Additional observations from a re-analysis of the deposited data

How the results depend on the processing

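No paired analysis was possible because levels are deposited per group rather than per animal, and for the same reason no replicate could be left out in turn. Both settings were therefore not run. The Tug1 count of 8 of 8 tissues did not change under any of the 4 alternatives run. The Morc2a count of 5 tissues was 3 with a 2-fold limit and 5 with a pseudocount of 0.1 or 1 TPM or with centring on the median gene, which exchanges eyes for heart. No log2 ratio of either gene changed sign. A pseudocount of 0.1 TPM moved 4 of 20 ratios by 1.5-fold or more and a pseudocount of 1 TPM moved 10, by their construction, since the knockout values lie below the pseudocount or near it. As Spearman correlations, the relation of the Morc2a ratio was 0.238 with the wild-type level of Tug1, 0.762 with that of Morc2a and 0.976 with the Tug1 ratio. The last relation was added after seeing the data. With a pseudocount of 0.1 TPM it was 0.274 (Pearson) and 0.524 (Spearman), and with 1 TPM it was -0.17, a change of sign, and 0.0714. The relation thus depends on how the small Tug1 knockout values are treated. All of these values lie below 1 TPM, so with that pseudocount the Tug1 ratio mostly follows the wild-type level. That setting cannot decide on the relation. Leaving out testes or brain moved each of the 3 Pearson correlations by less than 0.1. Over the 8 knockout comparisons the background share at 1.5-fold was between 8.51 and 15.1% with no filter and between 0.819 and 2.19% with a filter of 5 TPM. Low counts limit the Tug1 knockout values, and no spread between animals was available from values of single samples.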
